A study of Mus musculus with 6 samples.

Results

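The enzymes described here break down amino acids, make NAD from tryptophan and turn ammonia into urea, and were followed in samples labelled as mouse embryonic hearts with and without Sp3. They were chosen by name from a list of 39 enzymes known from liver, put forward with the difference between knockout and wildtype in these same arrays known, so their differences are a description and support nothing further. Of the 39, 36 were measured, among 18193 genes in all, each by its probe set of highest mean. Amt and Tdh have no probe set named here, and Gcat is named only on probe sets annotated to several genes, so these 3 were not analysed here.

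The series compared 3 Sp3 knockout samples with 3 wildtype samples, each lettered a to c. Every sample was labelled as total RNA of a single heart taken at stage E12.5, carried a biotin label and was hybridised to 1 oligonucleotide array. Sp3 is a DNA-binding protein of the Sp family, whose zinc fingers recognise GC boxes in promoters. The strain, the allele and the litters were not stated by the labels. All values below are log2 intensities unless another unit is named, and a difference is knockout minus wildtype.

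In adult liver, surplus amino acids lose their nitrogen through transaminases and through dedicated breakdown pathways, and the urea cycle disposes of the ammonia. Tyrosine is broken down to fumarate and acetoacetate, with fumarylacetoacetase as the last enzyme. Tryptophan is opened to kynurenine, from which quinolinate and then NAD can be made. Many of these genes are switched on in hepatocytes during late fetal and postnatal life, while serine synthesis and one-carbon enzymes are active in most dividing cells.

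Several whole-array facts bear on what follows. The targeted gene gave 8.39, 8.34 and 8.61 in the knockout arrays, in the order a to c, and 9.87, 9.77 and 9.54 in the wildtype arrays. Sp3 was thus at 41.4% of its wildtype level, with a limma adjusted p of 0.00254 (0.279 without a variance trend). Median intensities of the arrays lay between 22.5 and 26.7. The heart label was set against markers: 13 hepatocyte genes had a median at the 97.7th percentile of all genes, and 10 erythroid genes at the 98.5th. The 13 heart muscle genes had theirs at the 29.3th, with 11 of 13 below the 50th. Transcripts that differ between the sexes did not match a single embryo in knockout c. Xist, made from an inactive X chromosome, was at 10.55 there, against 5.76 and 5.21 in knockout a and b, while the Y-linked Eif2s3y was at 6.64, against 8.79 and 8.76. Wildtype a had Xist at 10.63 and Eif2s3y at 1.34, the pattern of a female, and wildtype b and c had the pattern of males, with Xist at 5.80 and 5.35. Some results are therefore also given without knockout c and without wildtype a. These are mainly the count of enzymes lower in every knockout array, the median difference, and the differences of Fah, Qprt and Maoa.

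The promoters of the 4 enzymes of smallest unadjusted p are printed because Sp3 binds the GC box. The windows run from 250 bases before to 50 bases after the gene start in RefSeq (GRCm38.p6), 5′ to 3′ on the gene's strand. Capitals mark the GC box GGGCGG, or its reverse complement CCGCCC. Fah lies at chr7:84605893-84606192 on the minus strand, Maoa at chrX:16619448-16619747 on the plus strand, Qprt at chr7:127121980-127122279 on the minus strand and Kmo at chr1:175631943-175632242 on the plus strand.
Fah: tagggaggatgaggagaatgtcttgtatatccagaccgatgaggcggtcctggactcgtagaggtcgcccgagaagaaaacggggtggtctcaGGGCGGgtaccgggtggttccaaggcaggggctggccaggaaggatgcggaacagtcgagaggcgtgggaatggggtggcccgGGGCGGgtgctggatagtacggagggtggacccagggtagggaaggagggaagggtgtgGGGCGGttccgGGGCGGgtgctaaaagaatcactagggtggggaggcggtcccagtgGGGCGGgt
Maoa: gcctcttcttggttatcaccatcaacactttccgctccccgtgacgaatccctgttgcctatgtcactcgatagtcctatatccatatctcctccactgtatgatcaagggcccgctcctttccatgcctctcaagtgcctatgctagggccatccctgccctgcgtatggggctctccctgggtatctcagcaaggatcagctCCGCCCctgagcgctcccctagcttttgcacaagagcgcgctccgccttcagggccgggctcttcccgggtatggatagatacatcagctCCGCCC
Qprt: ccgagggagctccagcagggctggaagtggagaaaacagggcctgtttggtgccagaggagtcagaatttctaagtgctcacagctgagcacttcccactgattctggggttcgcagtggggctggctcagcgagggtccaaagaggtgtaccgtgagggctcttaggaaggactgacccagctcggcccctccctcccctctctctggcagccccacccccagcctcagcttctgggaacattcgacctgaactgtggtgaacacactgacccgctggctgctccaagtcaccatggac
Kmo: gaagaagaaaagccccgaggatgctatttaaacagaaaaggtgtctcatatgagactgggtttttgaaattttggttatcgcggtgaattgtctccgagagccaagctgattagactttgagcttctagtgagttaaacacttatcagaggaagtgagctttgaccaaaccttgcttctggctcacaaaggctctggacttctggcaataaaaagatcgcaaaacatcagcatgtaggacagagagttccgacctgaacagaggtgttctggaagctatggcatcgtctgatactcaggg

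The Fah window holds 5 GC boxes and the Maoa window 2, while those of Qprt and Kmo hold 0. Their GC contents are 64.3%, 57.7%, 60.3% and 44.3%, in the order Fah, Maoa, Qprt and Kmo. The set of windows used here holds 31 windows for 29 of the 36 measured enzymes. The GC box, read on both strands, is in 15 of the 31 (48.4%), against 35.7% of all 32851 windows. Among the enzymes whose arrays lay lower in every knockout sample, 7 of 10 windows hold it, 2 of the 7 being windows of Gstz1, against 8 of the other 21 windows. Cps1 and Mat1a, also lower in every knockout sample, have no window in the set. The TATA box TATAAA is in 4 of the 31 windows (12.9%) and in 13.6% of all windows, and the CCAAT box CCAAT in 19 (61.3%) and in 37.4%. Split the same way, the TATA box is in 0 of 10 and 4 of 21 windows, and the CCAAT box in 4 of 10 and 15 of 21. These matches describe letters in the windows and show neither binding nor a cause.

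Across the 36 enzymes, levels were more often lower in knockout than higher, and no enzyme passed the test. Means were lower in knockout for 27 enzymes and higher for 9, whereas 52.5% of all genes, and 58.7% of genes above the median level, had a lower mean. The median difference was -0.30, against -0.02 over all genes and -0.04 over the 9096 genes above the median level. All 3 knockout arrays lay below all 3 wildtype arrays for 11 of the 36, where 9.04% of all genes and 13.0% of those above the median level did so. The opposite order, which 6.02% of all genes had, was found for 0 enzymes. At an unadjusted limma p under 0.05, 8 enzymes were lower, beside 5.51% of all genes, and 2 were higher, beside 3.20%. After Benjamini-Hochberg adjustment over 45037 probe sets, of which limma called 14 (0.0311%), 0 of the 36 were called. The smallest limma adjusted p of an enzyme was 0.0740, or 0.410 without a variance trend. In that fit without a trend, 7 of the 36 had an unadjusted limma p under 0.05 in either direction. The share over all genes was not computed for it.

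**Figure D1:**
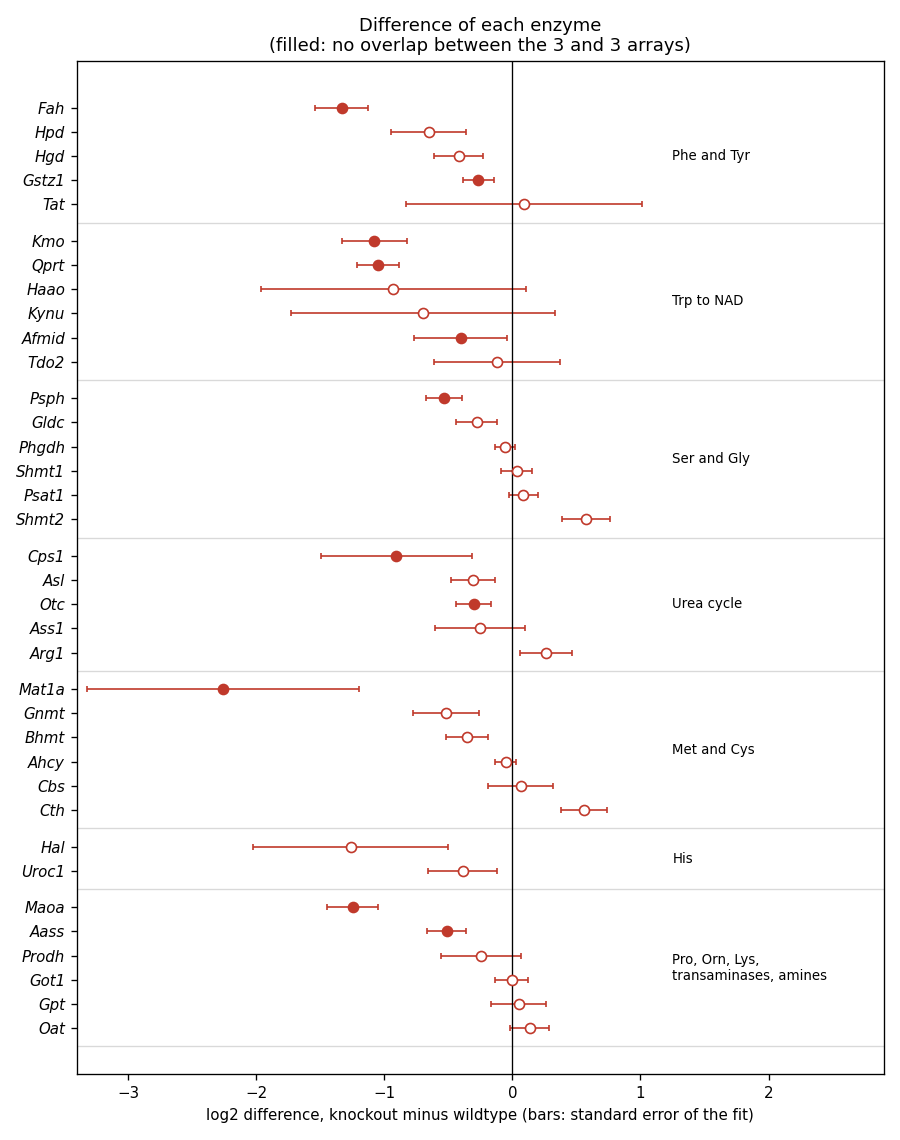
Difference of each measured enzyme, knockout minus wildtype on the log2 scale, with its standard error (3 arrays per group), ordered by pathway, with filled points where the groups do not overlap. Most points lie left of 0, the 11 enzymes without overlap between groups are all lower in knockout, and none of the 36 was called.

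The count of 11 rose with single arrays left out, as such a count can only stay or rise. Without knockout c it was 14 (13.3% of all genes), and without wildtype a it was 12 (13.8%), with medians of -0.27 and -0.19. Without wildtype c it was 17 (15.3% of all genes), and limma then called Fah and Qprt, each at an adjusted p of 0.0312. For Maoa, the lowest limma adjusted p with 1 array left out was 0.0808, without knockout c, beside 0.0871 with all arrays. Leaving out wildtype a or knockout a raised the p of Fah, Qprt and Maoa. In that order, the limma adjusted p was 0.747, 0.699 and 0.655 without wildtype a. Without knockout a it was 0.343, 0.562 and 0.562. Relative to 10 macrophage and leukocyte genes as a scale, the count of enzymes lower without overlap was 0, as described beside the marker lists.

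In tyrosine breakdown, the largest difference was that of Fah, fumarylacetoacetase, which splits fumarylacetoacetate. In the order a to c, as for all enzymes below, Fah was at 6.17, 5.79 and 6.08 in the knockout arrays and at 7.59, 7.47 and 6.98 in the wildtype arrays. Its lowest wildtype array lay 0.81 above its highest knockout array. Group means were 6.02 ± 0.20 and 7.35 ± 0.32 (SD, n = 3 each), a difference of -1.33 (SE 0.21), or 39.8% of the wildtype level, with a limma adjusted p of 0.0759. The difference was -1.36 without knockout c and -1.21 without wildtype a.

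The other enzymes of the pathway differed less. Gstz1, maleylacetoacetate isomerase, which makes the substrate of Fah, was at 8.05, 7.98 and 8.04 in knockout and 8.39, 8.19 and 8.27 in wildtype. Those groups did not overlap, and the difference was -0.26 (limma adjusted p = 0.702). Hpd, 4-hydroxyphenylpyruvate dioxygenase, was at 5.35 ± 0.44 and 6.00 ± 0.38, and Hgd, homogentisate dioxygenase, at 7.12 ± 0.25 and 7.54 ± 0.31 (SD, n = 3 each). Both overlapped, with differences of -0.65 and -0.42. A dimmer second probe set of Hgd read 0.33, 2.75 and 1.54 in knockout and 4.26, 4.71 and 3.48 in wildtype, without overlap. Tat, tyrosine aminotransferase, the entry of the pathway, was dim, at 1.34, 2.24 and 1.76 in knockout and 1.48, 2.03 and 1.55 in wildtype. Its groups interleaved, and the difference of 0.09 turned negative under quantile normalization (-0.10). Of the 5 enzymes, 4 had lower means and 2 were lower without overlap, beside 52.5% and 9.04% of all genes.

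**Figure D2:**
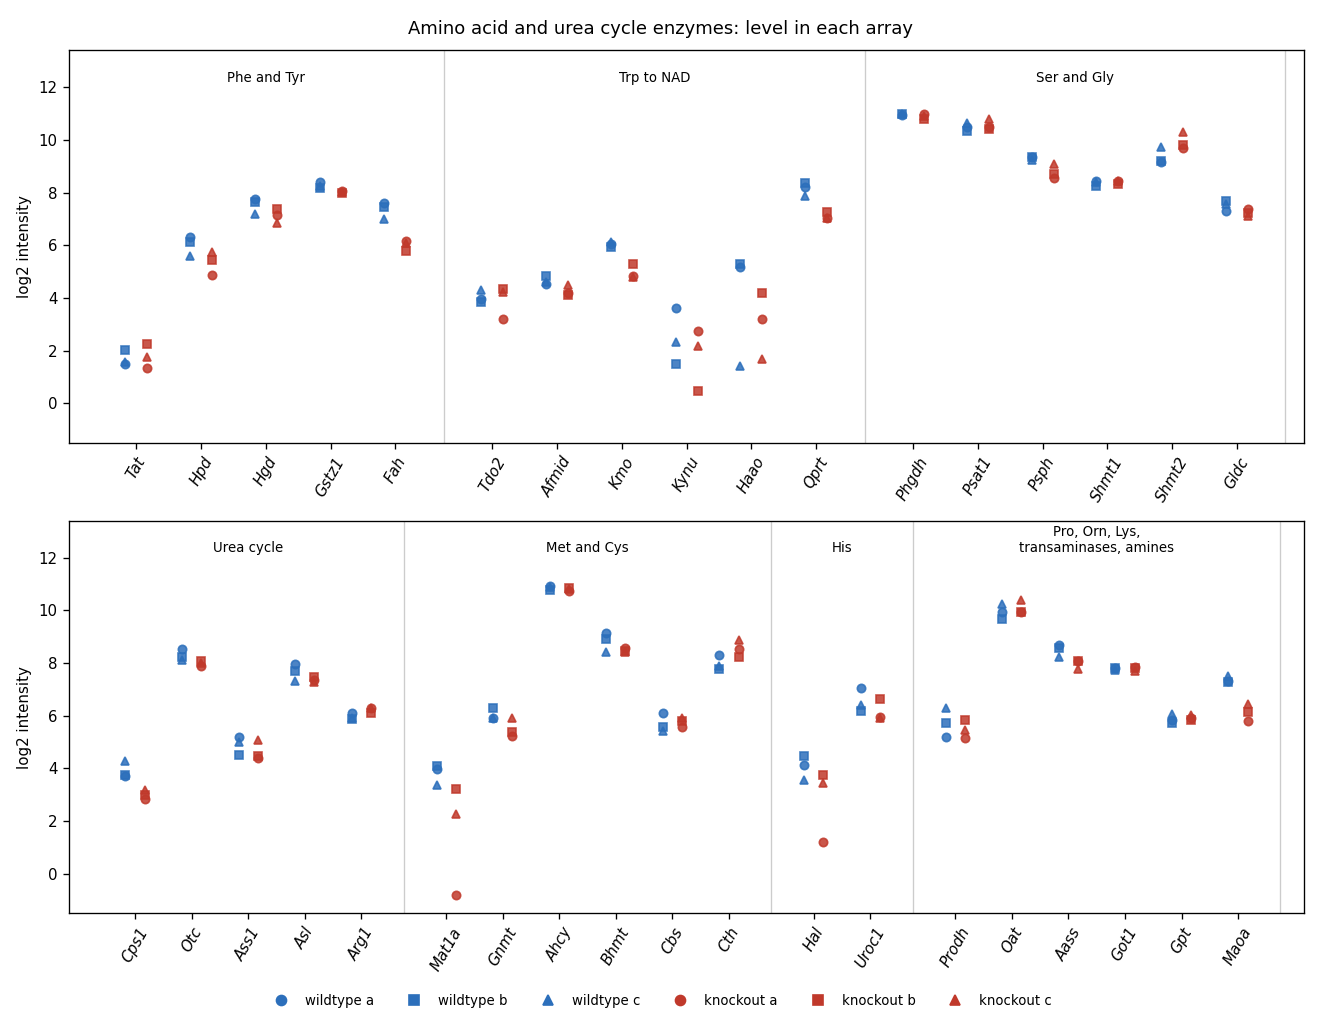
Level of each of the 36 measured enzymes as log2 intensity in each of the 6 arrays, grouped by pathway, with wildtype points left and knockout points right of each name. The gap between groups is widest for Maoa and Fah, and Shmt2 and Cth stand higher in knockout with overlap.

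All 6 enzymes from tryptophan to NAD had a lower mean in knockout, as 52.5% of all genes did, and 3 did not overlap, beside 9.04% of all genes. Qprt, quinolinate phosphoribosyltransferase, which commits quinolinate to NAD, was at 7.04, 7.26 and 7.02 in knockout and at 8.23, 8.36 and 7.87 in wildtype. Means were 7.11 ± 0.13 and 8.15 ± 0.25 (SD, n = 3 each), a difference of -1.05 (SE 0.16), or 48.3% of the wildtype level, with a limma adjusted p of 0.0740. A second probe set of Qprt also did not overlap, with a difference of -0.92. Without knockout c and without wildtype a the difference of Qprt was -1.01 each time.

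Kmo, kynurenine 3-monooxygenase, was at 4.83, 5.28 and 4.80 in knockout and 6.06, 5.95 and 6.13 in wildtype. Its difference was -1.08, or 47.4% of the wildtype level, with a limma adjusted p of 0.350. Afmid, kynurenine formamidase, was at 4.17, 4.10 and 4.48 against 4.52, 4.83 and 4.62, a gap between groups of 0.04. Its 3 other probe sets overlapped and differed by -0.35, 0.10 and 0.90. Tdo2, tryptophan dioxygenase, which opens the tryptophan ring, was at 3.19, 4.35 and 4.24 in knockout and 3.97, 3.86 and 4.31 in wildtype. Those groups interleaved, and its difference of -0.12 became 0.24 in the mean over its probe sets. Kynu, kynureninase, at -0.70, and Haao, 3-hydroxyanthranilate dioxygenase, at -0.93, were dim and overlapped.

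In the serine, glycine and threonine group, 3 enzymes had lower means and 3 higher. Psph, phosphoserine phosphatase, the last step of serine synthesis, was at 8.54, 8.71 and 9.07 in knockout and 9.34, 9.36 and 9.22 in wildtype. Knockout c came closest to wildtype, and the difference was -0.53 (69.1% of wildtype, limma adjusted p = 0.443), or -0.68 without knockout c. Phgdh and Psat1, the preceding steps, differed by -0.06 and 0.08, and a second probe set of Psat1 by 0.59, with overlap. Shmt2, the mitochondrial serine hydroxymethyltransferase, was at 9.71, 9.79 and 10.31 against 9.16, 9.20 and 9.74. Its difference of 0.57 was the highest of the 36 (limma adjusted p = 0.621), and the arrays overlapped by 0.03. A second probe set of Shmt2 did not overlap, at 9.29, 9.73 and 9.57 against 9.15, 9.25 and 9.07, while the other 2 overlapped, at differences of 0.16 and 0.13. Shmt1, the cytosolic form, differed by 0.03, and Gldc, of the glycine cleavage system, by -0.28. The probe sets used for Phgdh, Shmt1 and Shmt2 may read several transcripts, so these values are uncertain. The same holds for the probe sets used for Cbs, Uroc1 and Gpt below.

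**Figure D3:**
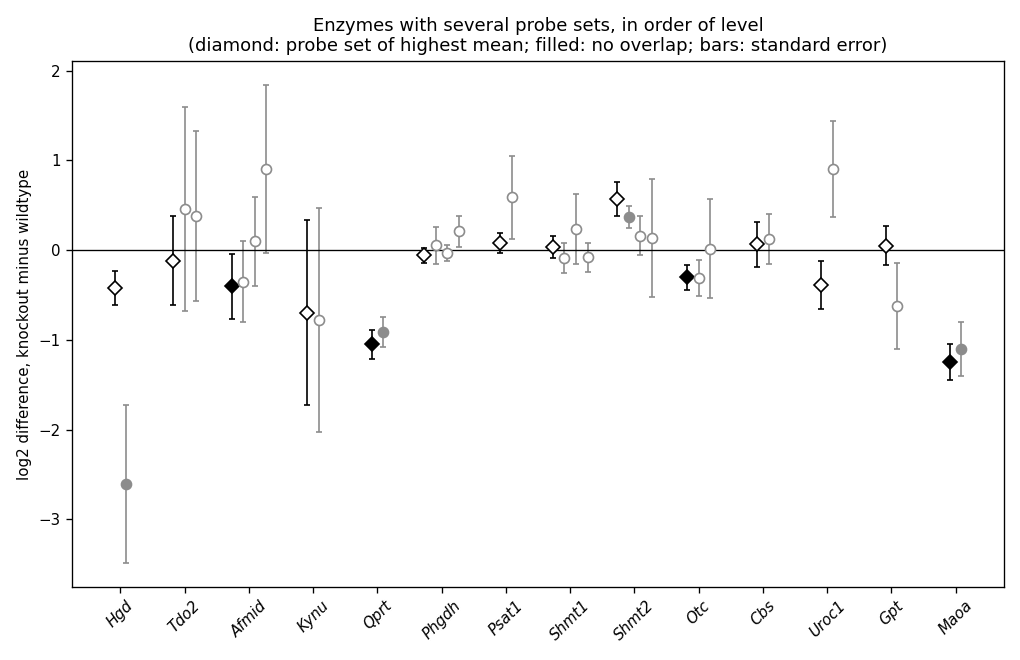
Difference of every probe set of the enzymes that have several, knockout minus wildtype on the log2 scale, with its standard error, as a diamond for the probe set of highest mean and filled where the groups do not overlap. The 2 probe sets of Qprt and of Maoa all lie below 0, and those of Afmid and Tdo2 lie on both sides.

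In the urea cycle, means were lower for 4 of 5 enzymes, 2 of them without overlap (9.04% of all genes), and the median difference was -0.30, as over all 36. Otc, ornithine transcarbamylase, was at 7.90, 8.08 and 8.02 in knockout and 8.53, 8.25 and 8.13 in wildtype, without overlap. That was a difference of -0.30, or 81.1% of wildtype (limma adjusted p = 0.699). Its 2 other probe sets overlapped, with differences of -0.31 and 0.02. Cps1, carbamoyl phosphate synthetase, the entry of the cycle, was dim at 2.84, 2.98 and 3.20 in knockout against 3.70, 3.76 and 4.27. Its difference was -0.91, or 53.4% of wildtype, and -0.37 after adding 16 intensity units, so its size is not exact. Arg1, arginase, which releases urea, stood the other way at 6.28, 6.11 and 6.30 against 6.12, 5.87 and 5.91. The groups of Arg1 overlapped by 0.01, and the difference was 0.26 (limma adjusted p = 0.793). Ass1 and Asl, which make and split argininosuccinate, overlapped at -0.25 and -0.31.

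Of the 6 methionine and cysteine enzymes, 4 had lower means. Mat1a, the liver form of methionine adenosyltransferase, was at -0.81, 3.23 and 2.27 in knockout and 3.98, 4.11 and 3.38 in wildtype. Knockout a lay far below all others, and the difference of -2.26 became -0.56 after adding 16 intensity units and -1.07 without knockout a. Cth, cystathionine gamma-lyase, which releases cysteine, was higher at 8.54, 8.25 and 8.89 against 8.30, 7.78 and 7.91. Wildtype a lay within the knockout range, and the difference was 0.56 (limma adjusted p = 0.596), or 0.40 without knockout c. Gnmt, glycine N-methyltransferase, differed by -0.52, Bhmt, betaine-homocysteine methyltransferase, by -0.35, Ahcy by -0.05 and Cbs by 0.06, all with overlap. Bhmt has a close copy, Bhmt2, so its reading is uncertain.

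Both histidine enzymes overlapped. Hal, histidine ammonia-lyase, the entry of the pathway, was at 1.20, 3.75 and 3.43 in knockout and 4.14, 4.46 and 3.57 in wildtype. Knockout a again stood lowest, and the difference was -1.26, or -0.46 without knockout a. Uroc1, urocanase, differed by -0.39. A dimmer probe set of Uroc1 went the other way, at 4.56, 4.66 and 4.31 in knockout and 4.71, 2.94 and 3.18 in wildtype, a difference of 0.90 with overlap.

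In the remaining group, Maoa, monoamine oxidase A, which oxidises serotonin and noradrenaline, was at 5.81, 6.13 and 6.45 in knockout and 7.33, 7.28 and 7.52 in wildtype. All wildtype arrays lay at least 0.83 above the knockout arrays. Means were 6.13 ± 0.32 and 7.38 ± 0.13 (SD, n = 3 each), a difference of -1.25 (SE 0.20), or 42.2% of the wildtype level, with a limma adjusted p of 0.0871. A second probe set of Maoa did not overlap either, at a difference of -1.10. The difference was -1.41 without knockout c and -1.27 without wildtype a. Aass, aminoadipate-semialdehyde synthase of lysine breakdown, was at 8.06, 8.09 and 7.79 against 8.70, 8.56 and 8.22. It did not overlap, and its difference was -0.51, or 70.1% of wildtype (limma adjusted p = 0.541). Oat, ornithine aminotransferase, differed by 0.14, Prodh, proline dehydrogenase, by -0.24, and the transaminases Got1 and Gpt by -0.00 and 0.05, all with overlap. A dimmer probe set of Gpt differed by -0.62, also with overlap.

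The 6 arrays did not take equal parts. Knockout a held the lowest of the 6 values for 13 of 36 enzymes and wildtype a the highest for 13. Expressed as the median percentile among all genes, the enzymes stood at 56.4, 58.4 and 57.7 in the knockout arrays, in the order a to c, and at 69.0, 70.3 and 65.2 in the wildtype arrays.

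**Figure D4:**
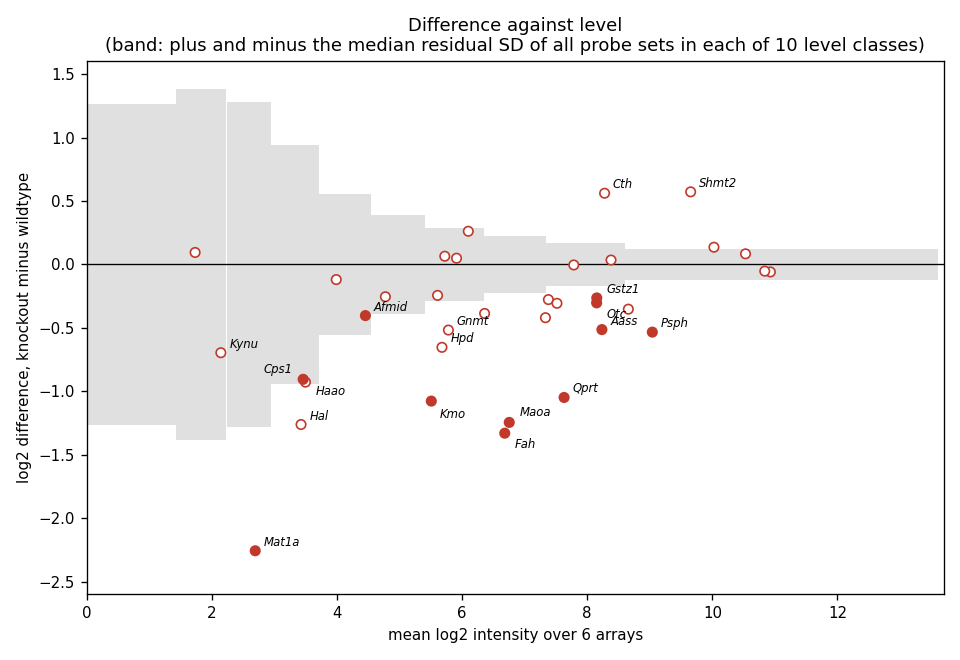
Difference of each enzyme, knockout minus wildtype on the log2 scale, against its mean log2 intensity over the 6 arrays, filled where groups do not overlap, over a band of plus and minus the median residual SD of all probe sets in 10 classes of level. The differences of Mat1a, Hal and Cps1 lie at low levels, where the spread between arrays is wide. Fah, Qprt and Maoa lie in classes 8, 9 and 8 of the 10, counted from the dimmest.

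Spread fell with level. When all probe sets were divided into 10 classes of level, the median residual SD between arrays of a group was 1.39 in the second dimmest class and 0.13 in the brightest. Tat, Kynu, Mat1a, Haao, Cps1 and Hal lie in classes with a residual SD of 0.94 or more, so how large their differences are is uncertain.

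Other genes of amino acid and NAD metabolism were counted from a list of 104, of which 92 were measured. Means were lower in knockout for 68 and higher for 24, with a median difference of -0.16. All knockout arrays lay below all wildtype arrays for 21 of the 92 and above them for 2, beside 9.04% and 6.02% of all genes and 13.0% lower among genes above the median level. Limma called 0 of the 92, with a smallest adjusted p of 0.155. At an unadjusted limma p under 0.05, 14 were lower and 1 was higher, beside 5.51% and 3.20% of all genes. Without a variance trend 8 passed it in either direction, and the share over all genes was not computed for that fit. Cdo1, cysteine dioxygenase, which sends cysteine toward taurine, had that smallest p, at 6.72, 6.89 and 6.64 in knockout and 7.58, 7.68 and 7.46 in wildtype. Its difference was -0.82, or 56.6% of wildtype. Maob, the other monoamine oxidase and a neighbour of Maoa on the X chromosome, was at 7.78, 7.63 and 7.53 against 8.60, 8.22 and 8.05, a difference of -0.64 (limma adjusted p = 0.400).

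The counts by pathway that follow rest on few genes each, and several are near those shares. Around tryptophan and NAD, 3 of 13 such genes were lower without overlap: Naprt, which makes NAD from nicotinate, at -0.83, Kyat3, a kynurenine aminotransferase, at -0.53, and Nadk, NAD kinase, at -0.23. Around serine and glycine it was 5 of 13, led by Gcsh, of the glycine cleavage system, at -0.23, Pipox at -0.60 and Dmgdh, dimethylglycine dehydrogenase, at -0.38. Beside the urea cycle, 2 of 6 were lower without overlap. These were Nags, which makes the activator of Cps1, at -0.70, and Slc25a15, the mitochondrial ornithine carrier, at -0.26. Around methionine and cysteine, Mtrr joined Cdo1 at -0.29, while Ahcyl2 was higher without overlap at 0.36. Pycr3, of proline synthesis, and Glud1, glutamate dehydrogenase, were lower at -0.43 and -0.20. Of 20 branched-chain genes, 4 were lower without overlap, among them Acadsb at -0.58, Mcee at -0.47 and Hibch at -0.37, and Ppm1k was higher at 0.19. Srm, spermidine synthase, was the 1 gene of 6 lower without overlap in the asparagine, arginine and polyamine list, at -0.10. None of the other 4 phenylalanine and tyrosine genes or 4 histidine genes was without overlap.

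Markers of several cell types are set beside these enzymes. Over all genes, 52.5% had a lower mean, and 9.04% were lower and 6.02% higher without overlap. Among genes above the median level, 58.7% had a lower mean and 13.0% were lower without overlap. The hepatocyte count without overlap below is near these shares. In bulk samples, fewer cells of a type and less RNA per cell cannot be told apart. Hepatocyte markers were lower in mean for 11 of 13, with a median difference of -0.10, and 1 of them, Alb, serum albumin, did not overlap, at -0.18. Their summed intensity ran from 42950 to 43520 in knockout and from 42720 to 49750 in wildtype, so the sums overlapped. Erythroid markers were lower in mean for 8 of 10, with a median difference of -0.31 and sums from 30380 to 40970 and from 37600 to 43790. Macrophage and leukocyte markers were lower for 10 of 10, 5 of them without overlap, with a median difference of -0.56 and sums from 1218 to 2042 in knockout and from 2377 to 2672 in wildtype. Heart muscle markers were higher for 10 of 13, with a median difference of 0.88. Of these, 2 did not overlap, Myh6 and Myl2, both dim. Sums ran from 814.9 to 842.0 in knockout and from 262.4 to 781.6 in wildtype. Actc1 and Myl7, the brightest of the list in every array, weigh most in those sums, and both overlapped. Gut and pancreas markers, dim as a list, were lower for 4 of 5, with a median difference of -1.14 and sums from 42.98 to 87.47 and from 108.8 to 161.4. Among them Fabp2, a fatty acid binding protein of the intestine, did not overlap, at -1.41 (limma adjusted p = 0.149). Fabp2 was the brightest of the 5 in every array and weighs most in those sums, and the other 4 genes overlapped. Epicardium and mesothelium markers were higher for 5 of 6, with a median of 0.39, neural markers lower for 4 of 4, with a median of -0.67, and all of them overlapped. Endothelium markers were higher for 5 of 8 and kidney markers for 2 of 4, with medians of 0.08 and 0.05. After adding 16 intensity units, the median was 0.39 for heart muscle markers and 0.14 for epicardium and mesothelium markers. It was -0.26 for gut and pancreas markers and -0.20 for neural markers, so the sizes of these medians are uncertain. The hepatocyte, erythroid, and macrophage and leukocyte medians changed less, to -0.10, -0.31 and -0.51. No marker list had a gene called by limma, and the part of these markers in the enzyme differences was not tested.

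**Figure D5:**
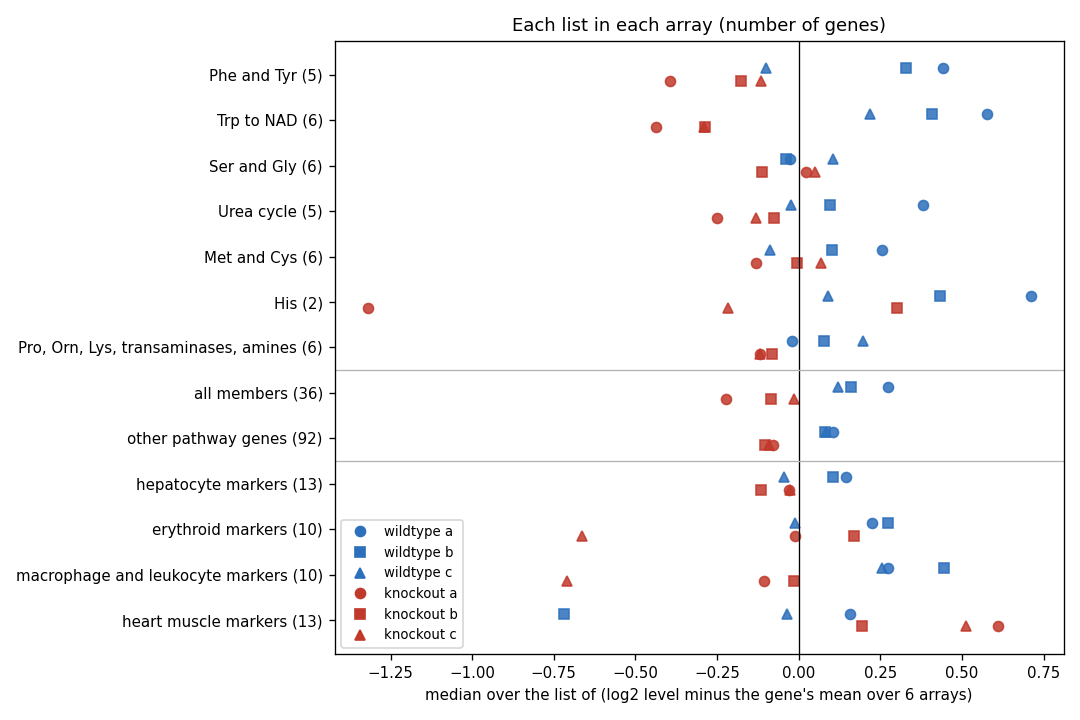
Median over each pathway group or marker list of the log2 level minus the gene's mean over the 6 arrays, with a point for each array. The tryptophan to NAD enzymes lie from -0.44 to -0.29 in knockout and from 0.22 to 0.58 in wildtype. The tyrosine, urea cycle and proline groups are lower in every knockout array by narrower gaps, and the macrophage and leukocyte markers are also lower in every knockout array, while hepatocyte markers overlap.

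Read relative to the mean level of the hepatocyte markers in each array, the median difference of the enzymes was -0.11 and 6 of 36 were lower without overlap, beside 2.08% of all genes. Without Fetub, a dim marker, those values were -0.21 and 9 of 36 (3.69%). Relative to the macrophage and leukocyte markers the median was 0.33, 0 enzymes were lower without overlap (0.478% of all genes) and 9 were higher (35.1%), while the median over all genes was 0.62. The hepatocyte scale moved the median of all genes to 0.17. Such a scale subtracts 1 value per array, so it moves the differences of all genes by the same amount and leaves the distance between the enzymes' median and that of all genes as it was.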

How the data were processed

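Total RNA of 6 samples labelled as single hearts was hybridised to 1 array each, 3 Sp3 knockout and 3 wildtype, grouped by sample title. The authors deposited linear intensities. GCOS and RMA are named in the submitters' processing notes, without a version or a role. The analysis plan had assumed log2 values, so log2 of the deposited intensity was taken, with no other normalization. The 64 control probe sets were left out, and a gene was read by its probe set of highest mean. Differences were fitted in R 4.3.3 with limma 3.58.1 (lmFit and eBayes with a variance trend and robust estimation, two-sided) over 45037 probe sets, and called at a Benjamini-Hochberg adjusted p under 0.05. Of these, 34945 were annotated to 1 gene, 932 to several and 9160 to none.

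The enzymes, gene lists, markers, rule and tests were chosen with earlier results of these data known, including the use of the trend. Values per array are given for enzymes without overlap between groups, for the smallest p of each pathway group, for probe sets that differ, and for Arg1, Cps1, Tat, Tdo2 and Mat1a. Of other pathway genes, up to 3 of smallest p without overlap are named per list. Nothing states that samples of a group came from separate litters, so p-values cover only the spread among these 6 arrays, whose number limits precision. Of 15 array pairs, none shared more than 1 value. The fit was tested on simulated data. Alternatives were other scalings, an offset, dim probe sets left out, array weights, no trend, the replicate letter as a block, each array left out and the mean over probe sets.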

Additional observations from a re-analysis of the deposited data

How the results depend on the processing

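Dim probe sets limit the sizes given for 6 enzymes, and 3 arrays per group limit all of them. Against 14 probe sets called, the fit without a trend called 0, array weights 25, the mean over probe sets 9 and the macrophage and leukocyte scale 77; leaving out 1 array gave 3 to 24. Against 0 enzymes called, median centring called 1 (Maoa), array weights 3 (Fah, Maoa and Qprt) and leaving out 1 array 0 to 2. Over all probe sets, deviations of same-letter arrays had correlations of -0.007, 0.05 and 0.0801. Those of different-letter arrays ran from -0.0693 to 0.0205. The main fit did not take the letters as pairs, and whether a letter marks a shared origin was not tested. The replicate block called 258 probe sets, 4 enzymes (Fah, Maoa, Qprt and Shmt2) and 2 other pathway genes (Cdo1 and Maob). Against 11 enzymes lower without overlap, the hepatocyte scale left 6 (2.08% of all genes) and the macrophage and leukocyte scale 0. Leaving out 1 array gave 12 to 17. An array left out can only keep or raise a count of this kind. The share of all genes rose too, from 9.04% to 17.3% without knockout b, for example. Against 0 higher, quantile normalization gave 1 (6.64% of all genes), median centring 1 (4.44%) and the hepatocyte scale 2 (10.4%). The hepatocyte scale without Fetub also gave 2, and the macrophage and leukocyte scale 9, with its share given above. Leaving out 1 array gave 0 to 2, among them 2 without knockout b (11.9%). The median difference of -0.30 became -0.11 on the hepatocyte scale, -0.21 on it without Fetub and 0.33 on the macrophage and leukocyte scale, and ran from -0.40 to -0.19 with 1 array left out. The direction turned for Tat with quantile normalization (-0.10), and without single arrays, from -0.14 (knockout b) to 0.32 (knockout a), with -0.01 without wildtype a. Tdo2 turned on the hepatocyte scale (0.072), in the mean over probe sets (0.24), on the macrophage and leukocyte scale (0.52), without knockout a (0.25) and without wildtype c (0.01), over a range from -0.33 to 0.25 with single arrays left out. Afmid turned in the mean over probe sets (0.061). On the macrophage and leukocyte scale, Afmid (0.23), Gstz1 (0.37), Psph (0.10), Otc (0.33) and Aass (0.12) turned too; that scale moves every gene's difference by the same amount, and the median of all genes from -0.02 to 0.62. The macrophage and leukocyte scale and the hepatocyte scale without Fetub were chosen after seeing the data. The cause of these changes was not tested.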
